A study of Danio rerio with 2 samples.

Results

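The lens crystallin genes are the structural protein genes of the eye lens, and they were described here in RNA sequencing of dissected zebrafish hearts. The members are the genes of the deposited count table whose symbol begins with cryaa, cryba, crybb, crygm, crygn or crygs, 55 of 32057 genes. They comprise 1 alpha gene, 13 beta genes and 41 gamma genes, of which 35 are gamma M, 2 gamma N and 4 gamma S. The rule used names alone and no measured value, though it was set with earlier results of these data known. The study compared 2 libraries from larvae at 96 hours post fertilisation. The first came from fish carrying nju18, an allele of the forkhead factor gene foxc1a, and the second from fish of the TU strain, the wild type. Both came from hearts that were removed and flash frozen, with a minimum of 300 ng of total RNA. The number of hearts behind each library, the strain background of the mutant fish and whether they were homozygous are not given in the labels.

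Crystallins are the main soluble proteins of lens fibre cells and give the lens its transparency and refractive power. Alpha crystallins belong to the small heat shock proteins and act as chaperones that keep other lens proteins in solution. Beta and gamma crystallins share a fold built of Greek key motifs. The acidic (cryba) and basic (crybb) beta chains assemble into oligomers, while gamma crystallins are monomers packed most densely in the lens core, and the gamma M group is a methionine-rich branch best known from fishes. The lens is not a part of the heart.

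The libraries held 17467109 reads on genes (foxc1a nju18) and 20049851 (wild-type TU). With 1 library per genotype there is no spread between replicates, so no test between genotypes was made and none of the differences has a replicate check. Ratios are foxc1a nju18 over wild-type TU, taken from read counts scaled to a common library size (CPM) with trimmed means (TMM). Their intervals are exact 95% Clopper-Pearson intervals of the reads, which hold the counting error alone and set library against library, not genotype against genotype. The 12259 genes that reached 5 CPM in at least 1 library were held to a 2-fold rule on the log2 ratio of CPM + 1, and their median was 0.04. Scaling by total counts instead moved the log2 ratios of the crystallin genes by -0.29 (median) and that of all genes to -0.26. In bulk tissue, fewer cells of a type and less RNA per cell cannot be told apart. The count of foxc1a was 798 and 629 reads (50.5 and 28.4 CPM). Since the labels do not say what the allele does to the transcript, this level does not check the genotype labels, and directions are those of the labels.

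Heart muscle markers and lens genes were both present in each library. Cardiomyocyte markers such as myl7, a myosin light chain of both chambers (4383 and 2608 CPM in the foxc1a nju18 and wild-type TU libraries), and nppa, a natriuretic peptide gene (3961 and 1200 CPM), were abundant. All 15 matched cardiomyocyte markers passed 5 CPM, and the list took 3.33% of reads in the foxc1a nju18 library and 1.299% in the wild-type TU library. The 55 crystallin genes together took 1.25% of reads in the foxc1a nju18 library (interval 1.249 to 1.259%) and 1.77% in the wild-type TU library (interval 1.766 to 1.778%).

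Of the 55 crystallin genes, 50 had a read in either library and 37 passed 5 CPM, 34 of them in both libraries. The genes crygm1, crygm6, crygm7, crygs2 and crygs3 had 0 reads in both libraries, which allows up to 0.190 CPM in the foxc1a nju18 library and 0.135 CPM in the wild-type TU library (a floor of 3 reads). A further 3 genes had reads in the wild-type TU library alone, with 5 reads for crygm2a, 4 for crygm3 and 1 for crygs4, too few for a ratio. Of the 37 genes at 5 CPM, 8 were at least 2-fold lower in the foxc1a nju18 library, where 11.1% of all genes at 5 CPM were. A single crystallin gene, crygn1, was at least 2-fold higher, against 9.61% of all genes. All 8 lower genes were gamma M crystallins, and 0 of the 10 beta genes at 5 CPM were 2-fold apart in either direction. A gene that passed in the library where it was high alone had to differ, which was so for cryba1a, crygn1 and crygm5, so these counts describe the genes that passed and not the whole family.

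**Figure D1:**
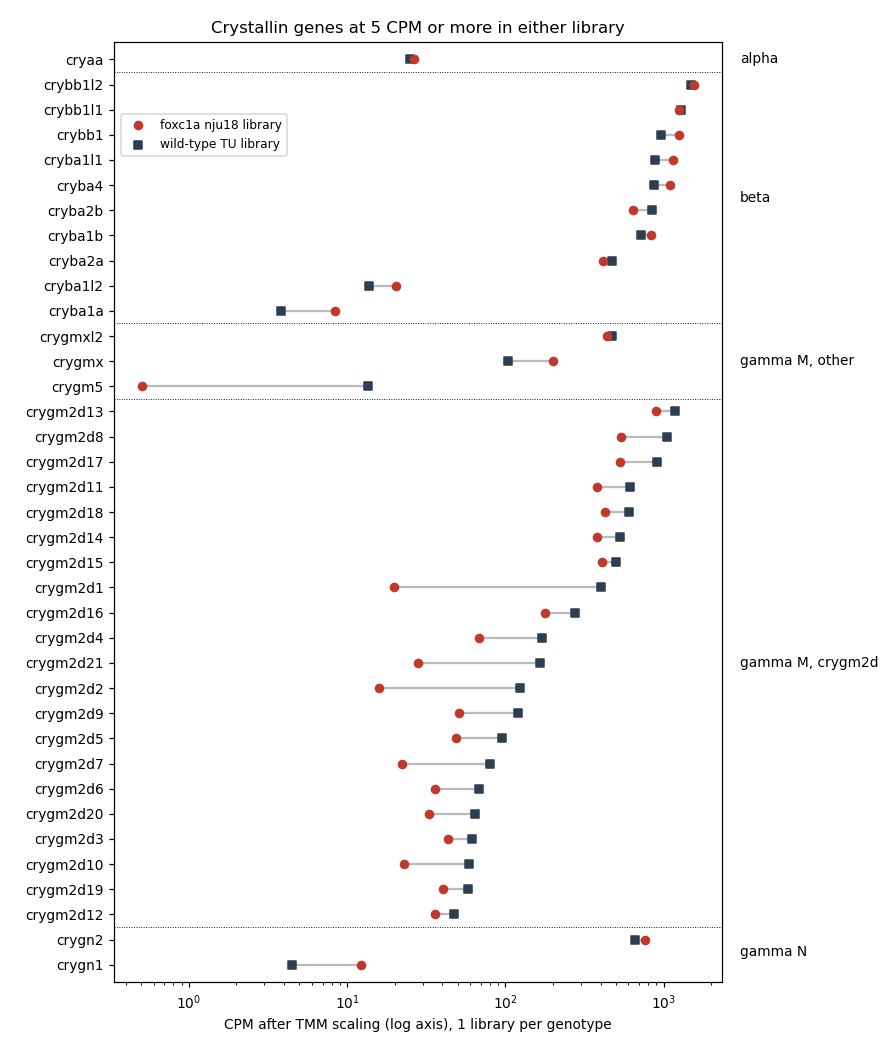
Levels of the 37 crystallin genes at 5 CPM or more, in CPM after TMM scaling on a log axis, with the foxc1a nju18 library as circles, the wild-type TU library as squares and a line joining the values of a gene. The symbols lie close together for most beta genes, while all 21 crygm2d genes have the foxc1a nju18 value to the left of the wild-type TU value, farthest for crygm2d1 at 19.9 and 403 CPM.

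The only alpha crystallin gene that the name rule takes, cryaa, was a minor crystallin transcript. It had 421 reads in the foxc1a nju18 library and 552 in the wild-type TU library, which is 26.7 and 24.9 CPM, a ratio of 1.07 (interval 0.941 to 1.22) and 0.875 with total-count scaling. Per length, its level was 17.0 FPKM in the foxc1a nju18 library and 19.4 FPKM in the wild-type TU library. Reads of cryaa made up 0.192% of crystallin reads in the foxc1a nju18 library and 0.155% in the wild-type TU library. The interval, taken with TMM scaling, holds 1, and the direction of cryaa depends on the scaling. The alpha B genes fall outside the name rule and were near the floor, with 4 and 2 reads for cryaba and 2 and 9 reads for cryabb in the foxc1a nju18 and wild-type TU libraries.

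Beta crystallins had close summed levels in the libraries, while single members differed in both directions. The 13 genes had 129741 reads in the foxc1a nju18 library and 167539 in the wild-type TU library, or 8215 and 7555 CPM in sum, a ratio of 1.09 (interval 1.08 to 1.095). The median log2 ratio of the 10 genes at 5 CPM was 0.28, beside 0.04 for all genes. With total-count scaling that median was -0.015 and the ratio of the summed reads 0.889, so the direction of the class depends on the scaling. The acidic and basic chains behaved alike in sum, with ratios of 1.09 (cryba) and 1.08 (crybb).

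Among the basic beta chains, crybb1l2 had the most reads of any crystallin gene in the foxc1a nju18 library, and in the wild-type TU library as well. It had 1557 CPM in the foxc1a nju18 library and 1494 CPM in the wild-type TU library, a ratio of 1.04 (interval 1.02 to 1.06) that is below 1 with total-count scaling. crybb1l1 stood at 1243 and 1296 CPM, a ratio of 0.959 (interval 0.942 to 0.977). Under TMM scaling neither differed by more than a few percent. With total-count scaling the log2 ratios were -0.35 for crybb1l1 and -0.23 for crybb1l2. crybb1 had 1245 CPM in the foxc1a nju18 library and 957 CPM in the wild-type TU library, a ratio of 1.301 (interval 1.28 to 1.33). On the per-length scale crybb1 was the highest beta gene, with 1115 FPKM in the foxc1a nju18 library and 1048 FPKM in the wild-type TU library.

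The other basic beta genes were rare, and they spread more widely. crybb1l3 had 27 reads in the foxc1a nju18 library and 32 in the wild-type TU library. crybb2 had 5 and 52 reads, a ratio of 0.135 (interval 0.0421 to 0.336), and crybb3 had 57 and 19 reads, a ratio of 4.21 (interval 2.47 to 7.50). These 3 genes stayed under 5 CPM in both libraries and lie outside the counts above, and crybb2 and crybb3 differed in opposite directions.

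Among the acidic beta chains, 5 of 7 genes had a log2 ratio above 0. cryba1l1 had 1146 CPM in the foxc1a nju18 library and 881 CPM in the wild-type TU library (interval of the ratio 1.27 to 1.33), and cryba4 had 1098 and 870 CPM (ratio 1.26, interval 1.24 to 1.29). cryba1b stood at 837 and 722 CPM, a ratio of 1.16 (interval 1.13 to 1.19), which is below 1 with total-count scaling. The paralogs cryba2a and cryba2b were on the other side. cryba2a had 413 CPM in the foxc1a nju18 library and 471 CPM in the wild-type TU library (ratio 0.877, interval 0.850 to 0.905), and cryba2b had 642 and 842 CPM (ratio 0.762, interval 0.743 to 0.780). The low genes of this group had the largest positive differences, with 20.4 and 13.8 CPM for cryba1l2 (ratio 1.48, interval 1.26 to 1.74) and 8.42 and 3.83 CPM for cryba1a (ratio 2.197, interval 1.66 to 2.92). The log2 ratio of cryba1a on the CPM + 1 scale was 0.96, just short of the 2-fold rule.

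Among paralogs and neighbours of the beta class, the pairs with a single rare member were far apart in level. Per length, cryba1b had 334 FPKM in the foxc1a nju18 library and 352 FPKM in the wild-type TU library, while its paralog cryba1a had 3.83 and 2.13 FPKM. All 55 members matched NCBI RefSeq's gene table of the assembly GRCz12tu by gene ID, a different build from the GRCz11 of the files, and it was used here for neighbours alone. There, 4 acidic genes lie beside a basic gene with no protein-coding gene between them. The pair crybb1 and cryba4 had log2 ratios of 0.38 and 0.34, and the pair cryba1l1 and crybb1l1 had 0.38 and -0.06. The pair cryba1l2 and crybb1l2 differed in level per length, at 10.7 against 522 FPKM in the foxc1a nju18 library and 8.86 against 613 FPKM in the wild-type TU library. In the last pair, cryba1a and crybb1l3, both genes were rare.

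Both gamma N crystallins, a branch related to beta as well as gamma crystallins, had a higher value in the foxc1a nju18 library under TMM scaling, but crygn2 a lower one with total-count scaling. crygn2 was among the most abundant crystallins, with 767 CPM in the foxc1a nju18 library and 662 CPM in the wild-type TU library (ratio 1.16, interval 1.13 to 1.19). Its level per length was 707 FPKM in the foxc1a nju18 library and 746 FPKM in the wild-type TU library, the other direction from its CPM. crygn1 had 193 and 99 reads, or 12.2 and 4.46 CPM, a ratio of 2.74 (interval 2.14 to 3.52). crygn1 kept a log2 ratio of at least 1 with total-count scaling, but with 5 CPM added it fell short of the rule. The interval of crygn1 does not overlap that of crygn2, but both cover counting error alone. In addition, crygn1 passed 5 CPM in the foxc1a nju18 library alone, so the filter fixed its direction.

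The gamma S crystallins were nearly absent from both libraries. Of the 4 genes, crygs1 had 9 reads in the foxc1a nju18 library and 2 in the wild-type TU library, crygs4 had 0 and 1, and crygs2 and crygs3 had 0 reads in both. The ratio of crygs1 has a counting interval of 1.31 to 60.1, which gives no usable size.

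Under TMM scaling, gamma M crystallins were the class that was lower in the foxc1a nju18 library, and within it mainly the 21 genes named crygm2d. The 35 gamma M genes had 76568 reads in the foxc1a nju18 library and 172409 in the wild-type TU library, a ratio of 0.624 (interval 0.618 to 0.629). The crygm2d genes alone had 66367 and 159057 reads, or 4202 and 7173 CPM in sum, a ratio of 0.586 (interval 0.581 to 0.591). All 21 had a log2 ratio below 0 and a ratio interval wholly below 1, under TMM scaling, and no sign turned in the other scalings tried. Their median log2 ratio was -0.91 and 7 of 21 were at least 2-fold lower, beside 11.1% of all genes. The other 14 gamma M genes had 10201 and 13352 reads in sum, a ratio of 1.07 (interval 1.05 to 1.101) under TMM scaling. Most of these reads were from crygmx (3165 and 2322) and crygmxl2 (6906 and 10531), so the sum says little about the rest. As unscaled shares of all reads, the sums were 0.0584% in the foxc1a nju18 library and 0.0666% in the wild-type TU library, the other direction. The sources used here do not say how reads matching more than 1 place were counted, so the division of reads between close copies of crygm2d is uncertain, and values of single copies are less certain than their sum.

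crygm2d1 had the largest difference of the crygm2d genes. It had 314 reads in the foxc1a nju18 library and 8941 in the wild-type TU library, or 19.9 and 403 CPM, a ratio of 0.0493 (interval 0.0439 to 0.0552). crygm2d2 followed with 251 and 2763 reads, 15.9 and 125 CPM, a ratio of 0.128 (interval 0.112 to 0.145). crygm2d21 had 441 and 3667 reads, 27.9 and 165 CPM, a ratio of 0.169 (interval 0.153 to 0.186). These 3 genes were more than 4-fold lower and are the only crygm2d genes past that size. crygm2d7 had 22.1 CPM in the foxc1a nju18 library and 79.7 CPM in the wild-type TU library, a ratio of 0.277 (interval 0.247 to 0.311). The remaining 3 genes past 2-fold were crygm2d10 (22.8 and 58.7 CPM), crygm2d4 (68.3 and 169.8 CPM) and crygm2d9 (50.8 and 120.3 CPM), with ratios of 0.388, 0.402 and 0.422.

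A further group of crygm2d genes lay just inside the 2-fold limit. crygm2d5 had 48.5 CPM in the foxc1a nju18 library and 95.4 CPM in the wild-type TU library (ratio 0.508), crygm2d20 had 32.8 and 64.0 CPM (0.512), and crygm2d6 had 36.1 and 68.6 CPM (0.526). crygm2d8, the second of the crygm2d genes in level, had 539 CPM in the foxc1a nju18 library and 1046 CPM in the wild-type TU library (0.515), and crygm2d17 had 534 and 913 CPM (0.585). With total-count scaling these 5 genes passed the 2-fold rule as well, which brought the count of lower crystallin genes to 13.

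The other crygm2d genes had ratios between 0.617 and 0.823. The most abundant, crygm2d13, had 896 CPM in the foxc1a nju18 library and 1177 CPM in the wild-type TU library, a ratio of 0.762 (interval 0.746 to 0.777). Its per-length level of 1262 FPKM in the foxc1a nju18 library and 2028 FPKM in the wild-type TU library was the highest of all crystallin genes in both, at rank 76 and rank 42 of all genes. crygm2d11 had 380 and 616 CPM, crygm2d18 had 423 and 601 CPM, and crygm2d14 had 377 and 531 CPM. crygm2d15 had 409 CPM in the foxc1a nju18 library and 497 CPM in the wild-type TU library, the smallest difference of the group. crygm2d16 stood at 178 and 275 CPM. The low copies crygm2d3 (43.4 and 62.0 CPM), crygm2d19 (40.2 and 58.0 CPM) and crygm2d12 (36.1 and 47.3 CPM) had ratios of 0.701, 0.693 and 0.764, within the range of the abundant copies.

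In the RefSeq table the 21 crygm2d genes lie in a row with no other protein-coding gene between them, and the differences changed along that row. Numbered from the end with crygm2d13, the first 8 genes (crygm2d13, crygm2d11, crygm2d15, crygm2d18, crygm2d17, crygm2d8, crygm2d14 and crygm2d16) had log2 ratios from -0.96 to -0.28. The other 13, from crygm2d6 to crygm2d1, had log2 ratios from -4.27 to -0.38, with the lowest values at the far end. Across the 21 genes the log2 ratio went down with the position in the row (Spearman's rho -0.74, and -0.70 over the 20 genes without crygm2d1). This is a description of 21 genes that share the same 2 libraries and may share reads, with no p. The split after the eighth gene was chosen after the values had been seen. Several genes do not follow the order. Examples are crygm2d3, at a log2 ratio of -0.50 between crygm2d7 and crygm2d21, and crygm2d10, at -1.33 between crygm2d21 and crygm2d2. crygm2d12, at -0.38 between crygm2d19 and crygm2d20, is another.

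**Figure D2:**
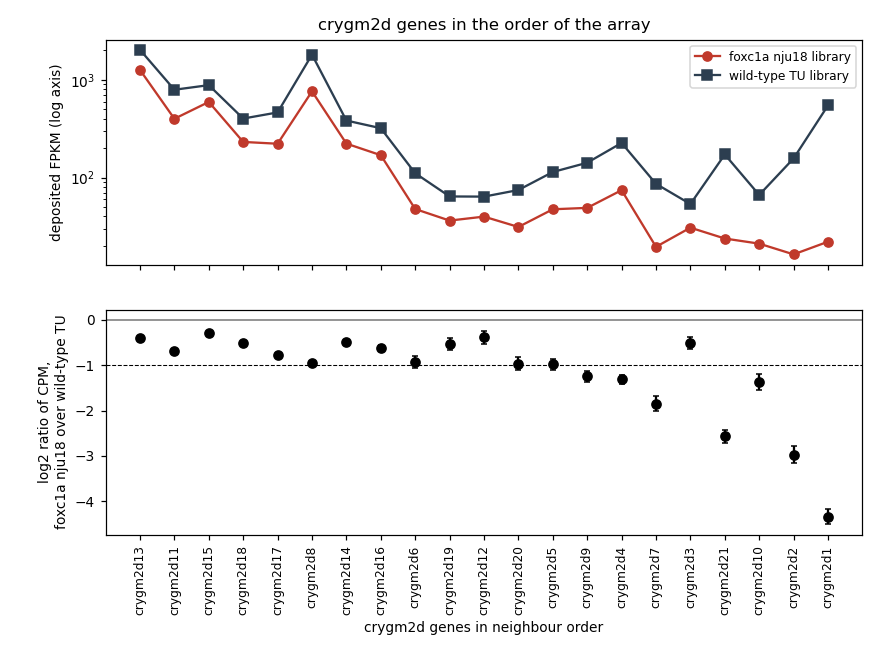
Deposited FPKM on a log axis (upper panel, circles for the foxc1a nju18 library and squares for the wild-type TU library) and the log2 ratio of CPM with its 95% counting interval (lower panel) for the 21 crygm2d genes in neighbour order. The lines of the libraries run side by side over most of the row and part towards crygm2d1, where the levels are 22.1 and 547 FPKM.

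Levels differed along the row as well, but without a steady fall. In the wild-type TU library crygm2d19 and crygm2d12 had 64.1 and 63.8 FPKM, while crygm2d4 and crygm2d1, nearer the far end, had 226 and 547 FPKM. The ranges that follow use the split chosen after the values had been seen. Per length, the first 8 genes had 169 to 1262 FPKM in the foxc1a nju18 library and 320 to 2028 FPKM in the wild-type TU library. The other 13 had 16.4 to 74.3 FPKM in the foxc1a nju18 library and 53.6 to 547 FPKM in the wild-type TU library. In the foxc1a nju18 library these ranges do not overlap, whereas in the wild-type TU library crygm2d1 lay within the range of the first 8. The first 8 genes took 88.9% of crygm2d reads in the foxc1a nju18 library and 78.9% in the wild-type TU library. The gene lengths implied by the deposited values ran from 623 to 2177 bases among the crygm2d genes, so the order of levels depends on those gene models. Over the 21 genes, Spearman's rho between the FPKM and the log2 ratio was 0.63 for the foxc1a nju18 level and 0.10 for the wild-type TU level. Each level also enters the ratio, so these values are descriptions.

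Of the other gamma M genes, crygm5, crygmx and crygmxl2 passed 5 CPM, and they went different ways. crygm5, which lies beyond crygm2d1 in the row with crygm2f between them, had 8 reads in the foxc1a nju18 library and 302 in the wild-type TU library, or 0.507 and 13.6 CPM. Its ratio of 0.0372 (interval 0.0159 to 0.0742) was the lowest of any crystallin gene at 5 CPM. Since crygm5 passed in the wild-type TU library alone, the filter fixed its direction. crygmx had 3165 and 2322 reads, or 200.4 and 105 CPM, a ratio of 1.91 (interval 1.81 to 2.02) and a log2 ratio of 0.93, just short of the 2-fold rule. Its neighbour crygmxl2 had 437 CPM in the foxc1a nju18 library and 475 CPM in the wild-type TU library, a ratio of 0.921 (interval 0.893 to 0.949). The pair crygmx and crygmxl2 is apart from the crygm2d row.

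The rest of the gamma M genes were rare. crygm2c had 60 reads in the foxc1a nju18 library and 52 in the wild-type TU library, crygmxl1 had 19 and 61, and crygm2e had 24 and 40. crygm2b had 9 and 28 reads, crygm4 had 9 and 4, and crygm2f had 1 and 3. These genes lie outside the crygm2d copies by name, and none reached 5 CPM in either library.

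The make-up of the crystallin reads, which does not depend on scaling between libraries, differed accordingly. Beta crystallins made up 59.2% of crystallin reads in the foxc1a nju18 library (interval 59.0 to 59.4%) and 47.2% in the wild-type TU library (interval 47.0 to 47.3%). The crygm2d genes made up 30.3% in the foxc1a nju18 library (interval 30.1 to 30.5%) and 44.8% in the wild-type TU library (interval 44.6 to 44.9%). The other gamma M genes accounted for 4.66% and 3.76%, and gamma N for 5.62% and 4.16%. There were 0.512 crygm2d reads per beta read in the foxc1a nju18 library and 0.949 in the wild-type TU library. On the per-length scale the crygm2d genes were the larger part in both, at 45.7% of summed crystallin FPKM in the foxc1a nju18 library and 61.8% in the wild-type TU library.

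**Figure D3:**
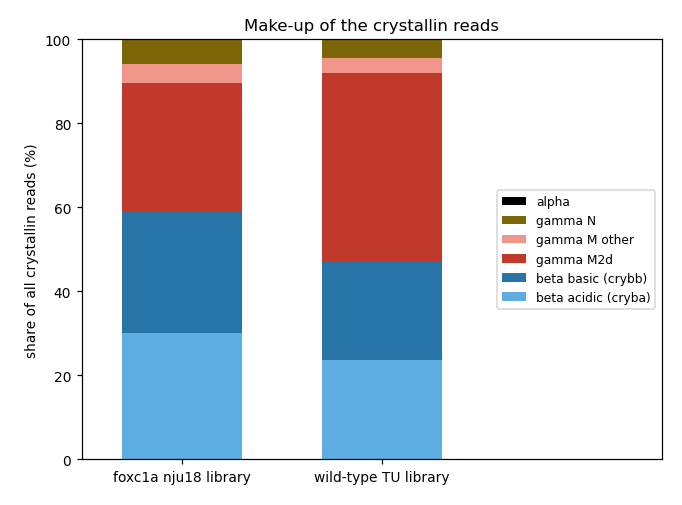
Share of all crystallin reads in each library by class, as stacked bars, with the foxc1a nju18 library on the left and the wild-type TU library on the right. The crygm2d part is 30.3% on the left and 44.8% on the right. The alpha gene is too small to see, and the gamma S genes are not drawn.

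The authors' deposited table lists 49 of the 55 crystallin genes and gives 7 of them an FDR below 0.05, 6 lower and 1 higher in the foxc1a nju18 library. Over all 23256 genes of that table, 7.63% were called lower and 4.24% higher. The lower calls in the authors' deposited table were crygm2d1 (log2 fold change -4.38, FDR 2.9e-14), crygm5 (-4.78, FDR 5.1e-12), crygm2d2 (-3.01, FDR 1.87e-07), crygm2d21 (-2.60, FDR 1.21e-05), crybb2 (-2.92, FDR 0.00168) and crygm2d7 (-1.89, FDR 0.00656). The higher call there was crybb3 (2.04, FDR 0.00986), a gene with 57 and 19 reads. crygm2d4, crygm2d9 and crygm2d10 passed the 2-fold rule and were not called in the authors' deposited table, nor was crygn1 (1.42, FDR 0.0979). How that FDR was derived from 1 library per genotype is not given in the sources used here.

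Other lens genes had levels in both libraries too, and under TMM scaling their summed reads differed little between them. The lens fibre and membrane list matched 19 of 20 symbols, and 13 genes passed 5 CPM. Their median log2 ratio was 0.14, with 2 higher by 2-fold or more and 0 lower, beside 9.61% and 11.1% of all genes at 5 CPM. gja8a (7.98 and 4.73 CPM in the foxc1a nju18 and wild-type TU libraries) passed 5 CPM in the foxc1a nju18 library alone. The filter thus fixed the direction of gja8a, which also pulls this median up. capn3a, a calpain protease gene, had 105 CPM in the foxc1a nju18 library and 134 CPM in the wild-type TU library, and lim2.4, which encodes a lens membrane protein, had 97.6 and 117 CPM. bfsp2, a beaded filament gene of lens fibres, had 109.8 and 99.4 CPM, and mipb, an aquaporin 0 gene of fibre membranes, 72.1 and 82.5 CPM. The summed reads of the list had a ratio of 0.940 (interval 0.916 to 0.965), which lies between the ratio of the beta class (1.09) and that of the crygm2d genes (0.586). These ratios use TMM scaling. Unscaled, the list took 0.0541% of all reads in the foxc1a nju18 library and 0.0704% in the wild-type TU library, a larger difference. The members past 2-fold were grifin, a galectin-related lens gene, with 21.1 and 7.58 CPM, and lim2.1 with 12.6 and 5.64 CPM. The other aquaporin 0 gene, mipa, had 21.8 and 37.7 CPM (ratio 0.578), close to the ratio of the crygm2d sum.

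Transcription factors of the lens were low, and several of them also act in retina or brain. Of 12 matched genes 8 passed 5 CPM, at a median log2 ratio of -0.46. Among these, 3 were at least 2-fold lower and 0 higher, beside 11.1% and 9.61% of all genes at 5 CPM. The lower genes were pax6a (4.05 and 14.2 CPM in the foxc1a nju18 and wild-type TU libraries), pax6b (4.05 and 17.5 CPM) and six3b (3.99 and 13.1 CPM), which are eye field genes. All 3 passed 5 CPM in the wild-type TU library alone, so the filter fixed their direction, and they also pull the median down. prox1a (34.6 and 26.4 CPM), mafba (49.96 and 41.1 CPM) and mafa (12.6 and 12.8 CPM) differed less, and pitx3, needed for lens development, had 7.73 and 7.31 CPM. sox1b, a factor of lens fibre cells, had 5.002 and 10.2 CPM, a ratio of 0.489 (interval 0.373 to 0.634). The genes under 5 CPM went different ways. foxe3, a marker of the lens epithelium, had 41 and 18 reads, hsf4, a heat shock factor of the lens, had 22 and 94, six3a had 2 and 37, and sox1a had 0 in both.

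Photoreceptor genes were lower in sum in the foxc1a nju18 library, by more than the gamma M crystallins were. Of 31 matched photoreceptor genes 25 passed 5 CPM, and 24 were at least 2-fold lower in the foxc1a nju18 library and 0 higher, beside 11.1% and 9.61% of all genes. Their median log2 ratio was -2.52, and the list took 0.0509% of reads in the foxc1a nju18 library and 0.473% in the wild-type TU library. The most abundant were the cone opsin genes opn1sw1 (90.2 and 1087 CPM) and opn1mw1 (45.8 and 479 CPM), the rod opsin gene rho (73.0 and 606 CPM) and gngt2b (68.1 and 413 CPM). In all 22 were at least 4-fold lower, the others of them being opn1sw2, opn1mw2, opn1lw2, prph2a, prph2b, rcvrn3, arr3a, gngt2a, crx, sagb, pde6b, pde6c, gnat1, gnat2, grk1b, grk7a, rom1a and rom1b. Of 7 genes of retinal interneurons, glia and pigment epithelium at 5 CPM, 6 were lower, but all 6 passed in the wild-type TU library alone. The filter thus fixed their direction, and their count does not show whether such genes were lower. Without the filter, all 16 matched genes of this list had 346 and 1959 reads in sum, a ratio of 0.248 (interval 0.221 to 0.278). Of these reads, rx1 alone had 43 and 646. Past 4-fold were rx1, vsx1, rgra and lhx2b, and past 2-fold rpe65a and rlbp1a. rgrb passed in the foxc1a nju18 library alone, with 5.51 and 3.02 CPM. Among the lower photoreceptor genes, opn1sw2, opn1mw2, prph2b, gngt2a, pde6b, rom1a, rom1b, grk1a and grk1b also passed in the wild-type TU library alone. The filter fixed their direction too, and they are part of the photoreceptor counts and median given here. Beside these values, the beta crystallins had a summed ratio of 1.09, the photoreceptor genes one of 0.131. Their part in the crystallin differences was not tested.

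**Figure D4:**
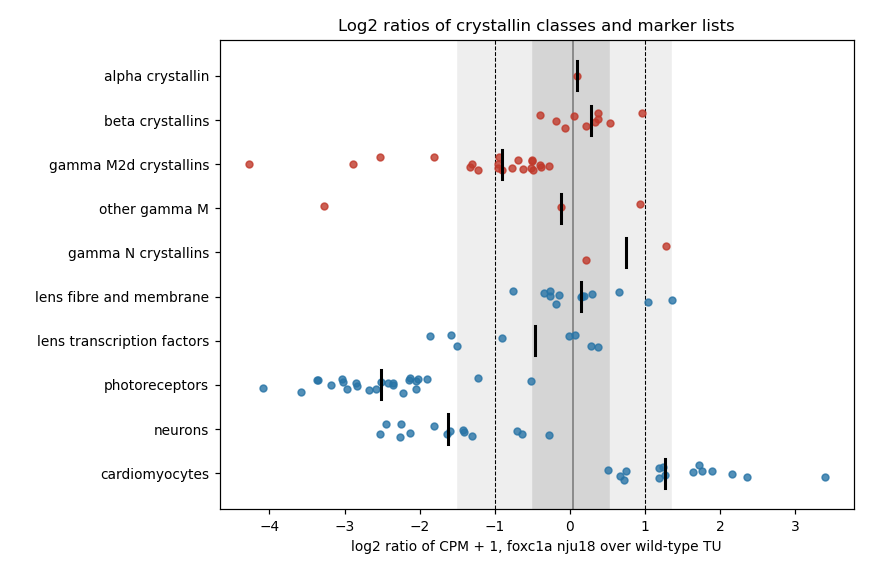
Log2 ratios of CPM + 1 (foxc1a nju18 over wild-type TU) for genes at 5 CPM or more, with a point per gene and a black bar at the median of each class or list, over the middle 50% and 90% of all such genes (grey) and their median (grey line), with dashed lines at 2-fold. The medians are 0.28 for beta crystallins, -0.91 for the crygm2d genes, 0.14 for lens fibre and membrane genes, -2.52 for photoreceptor genes and 1.27 for cardiomyocyte genes.

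Markers of further cell types moved in both directions. Beside the counts that follow, 11.1% of all genes at 5 CPM were at least 2-fold lower and 9.61% at least 2-fold higher. Neuron genes were lower, 11 of 14 by 2-fold or more (median log2 ratio -1.62). Of the most abundant, elavl3 had 62.5 and 97.7 CPM in the foxc1a nju18 and wild-type TU libraries and elavl4 48.9 and 80.5 CPM, both within 2-fold. stmn1b had 21.7 and 78.4 CPM, and snap25b, gad1b, gad2, slc17a6b and sv2a were past 4-fold. Among these, slc17a6b passed 5 CPM in the wild-type TU library alone, so it had to be lower. The neuron genes under 5 CPM went the other way, with 65 and 53 reads for nefma and 14 and 4 for nefla. Red cell genes at 5 CPM were lower as well, 7 of 8 (median -1.35), with 426 and 1239 CPM for hbbe1.1, 270.2 and 935 CPM for hbae3, 103 and 299.9 CPM for hbbe1.3 and 88.6 and 237 CPM for slc4a1a. Under 5 CPM, hbbe3 (22 and 4 reads) and alas2 (28 and 14 reads) were higher in the foxc1a nju18 library, and hbae5 (27 and 85 reads) was lower. Cardiomyocyte genes were higher, 11 of 15 (median 1.27), with myh7, myh7l and tnnt2a past 4-fold, and so were skeletal muscle genes, 12 of 16 (median 1.65), with actc1b at 5981 and 1972 CPM, ckmb at 2026 and 523 CPM, and myhz1.1, myhz1.2, mylpfb and pvalb1 past 4-fold. Endothelial genes had a median of 0.17, with cdh5 at 326 and 253 CPM, fli1a at 163 and 113 CPM, kdrl at 79.4 and 73.8 CPM and cldn5b at 56.0 and 171 CPM. Epidermal keratin and surface genes had a median of 0.36 with 3 of 11 higher and 0 lower, krt91 standing at 5433 and 1818 CPM, cyt1 at 4931 and 1542 CPM, cyt1l at 3441 and 870 CPM and krtt1c19e at 2970 and 2321 CPM. Whether any of these tissues bears on the crystallin values was not tested.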

How the data were processed

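Hearts of foxc1a nju18 and wild-type TU zebrafish were profiled as 1 library each, grouped by the genotype label. Per the submitters' processing notes, the genome build was GRCz11, and featureCounts, HISAT2, Trimmomatic and bcl2fastq are listed there without versions, roles or order. The authors deposited raw counts per gene, FPKM values, and a comparison table, named for EBSeq, whose per-library signal is the count divided by a size factor, with a fold ratio, its log2 and an FDR used as a q-value, per the file headers. How strand and multiply matching reads were handled is not given here.

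The counts were scaled with TMM (edgeR 4.0.16, R 4.3.3). Log2 ratios used 1 CPM added, and printed ratios nothing added. A 2-fold rule was applied to genes reaching 5 CPM in at least 1 library. Intervals and the floor of 3 reads (scipy 1.17.1) cover counting error only. They treat each read as a separate molecule, which reads need not be. The scripts were tested on simulated counts. Every crystallin gene with a read is named. From each of 12 marker lists, the 4 highest genes and those at least 4-fold apart are named, and others were named after their values were seen. The members and lists were chosen with earlier results of these data known. Alternatives were DESeq2 1.42.0 size factors, scaling by totals, TMM without crystallins, 0.25 or 5 CPM added, other filters and folds, and FPKM with 1 added.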

Additional observations from a re-analysis of the deposited data

How the results depend on the processing

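The 21 crygm2d genes kept a log2 ratio below 0 under each scaling and each added value tried. No crystallin gene past 2-fold changed direction. DESeq2 size factors and TMM without crystallins changed the sign of 0 of 37 genes and moved 0 across the 2-fold rule. Total-count scaling changed the sign of 4 genes with small positive values (cryaa, cryba1b, crybb1l2 and crygn2) and gave 13 lower crystallin genes in place of 8, all gamma M. With it the median log2 ratios were -0.78 (all crystallins), -0.015 (beta), -1.13 (gamma M) and -1.19 (crygm2d), and the ratios of summed reads 0.875 (alpha), 0.889 (beta), 0.510 (gamma M) and 0.956 (gamma N). It moved the median of all genes to -0.26. The deposited FPKM, scaled by totals, gave 13 lower genes and medians of -0.78, -0.015, -1.13 and -1.20 in the same order. With no filter there were 2 higher genes, 1 beta gene each way, and medians of -0.34 (all), 0.21 (beta) and -0.58 (gamma M). A filter of 20 CPM left 0 higher genes and medians of 0.21 (beta) and -0.77 (gamma M). Adding 0.25 CPM gave 2 higher genes, 1 of them beta, and adding 5 CPM gave 0. A 1.5-fold rule gave 15 lower, all gamma M, and 3 higher, 1 beta and 1 gamma M among them. A 4-fold rule gave 4 lower, all gamma M, and 0 higher. Means in place of medians were -0.62 (all), 0.22 (beta), -1.11 (gamma M) and -1.16 (crygm2d). Without the crygm2d genes the median was 0.21 over all crystallins and -0.12 over gamma M. Without its most abundant member the summed ratio was 1.099 for beta, 0.599 for gamma M and 2.74 for gamma N, where crygn1 alone is left. That setting gave no value for alpha or gamma S. No paired analysis was possible because each genotype has 1 library. An FDR of 0.01 left the 7 calls of the authors' deposited table at 7. Depth limits the gamma S genes, crybb2, crybb3 and the rare gamma M genes.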

Other observations

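Genes that carry a crystallin name or are relatives of the alpha crystallins, and that the name rule leaves out, went different ways. crybgx, a beta-gamma crystallin gene, had 12.03 CPM in the foxc1a nju18 library and 28.4 CPM in the wild-type TU library, a ratio of 0.423 (interval 0.358 to 0.499). The genes crybg1a and crybg1b, which carry beta-gamma crystallin domains and are not confined to the lens, had 80.5 and 77.3 CPM and 35.5 and 35.2 CPM, with intervals that hold 1. crym, the mu crystallin gene, which encodes a thyroid hormone binding enzyme, had 237 reads in the foxc1a nju18 library and 52 in the wild-type TU library, a ratio of 6.40 (interval 4.72 to 8.82). At 15.0 and 2.34 CPM, crym passed 5 CPM in the foxc1a nju18 library alone, so the filter fixed its direction. cryz, a quinone reductase gene, had 24.8 and 12.7 CPM, a ratio of 1.95 (interval 1.67 to 2.29), and cryl1 had 0 reads in both libraries.

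Among the small heat shock genes related to alpha crystallin, 5 of the 11 matched passed 5 CPM. Of these, 1 was at least 2-fold higher and 0 lower, beside 9.61% and 11.1% of all genes at 5 CPM. The higher gene was hspb1, with 543 CPM in the foxc1a nju18 library and 249 CPM in the wild-type TU library, a ratio of 2.18 (interval 2.11 to 2.26). hspb7, a gene of heart muscle, had 209 and 166 CPM, hspb8 had 31.4 and 19.98 CPM, and hspb11 had 129 and 154 CPM. The alpha crystallin gene cryaa had a ratio of 1.07 beside these.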
